A study of Mus musculus with 17 samples.

Results

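Collagen genes other than those of the collagen IV alpha-1 and alpha-2 chains were followed in H3K27ac HiChIP data of retinoic acid (RA) treated embryoid bodies (EBs). The members are the autosomal protein-coding genes of the mouse mm9 annotation whose symbol is Col, a number, a and a number, with Col4a1 and Col4a2 left out. The 2 X-linked collagen genes were not included. This gave 39 of 22367 protein-coding genes. For each gene, the read pairs of all loops with an anchor within 5 kb of its transcription start site (TSS) were summed.

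Collagens are secreted or membrane-bound proteins whose chains wind into long helices and assemble into fibrils, networks and filaments of the extracellular matrix. Fibrillar collagens form the cables of cartilage, bone, tendon and skin. FACIT collagens decorate the surface of these fibrils, and the remaining classes build networks under epithelia, beaded microfibrils, anchoring fibrils or cell surface adhesion sites. Mesenchymal cells, chondrocytes and osteoblasts are the classical producers of fibrillar collagens, whereas epithelia and endoderm are better known for basement membrane collagen.

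HiChIP enriches read pairs that join chromatin regions bearing H3K27ac, an acetylated histone found where promoters and enhancers are in use. All libraries came from mouse embryonic stem cells grown as EBs by the hanging drop method and given RA at 0.5 µM for 4 days (RA-day 4), and there were no untreated libraries. The bulk group holds 12 libraries of unsorted cells. The other group, labelled cluster2, holds 5 libraries of cells sorted for the surface markers EpCAM and CD38 (EpCAM/CD38 double positive cells). Several sorts were needed to collect these cells, and the labels do not tie each library to a sort. No transgene or mutation is named for either group. The bulk cells still contain the double positive cells, so the comparison sets a sorted population against a mixture that includes it. Nothing in the labels says that the libraries of either group came from separate cultures, and p-values measure only the spread between these libraries, which may be technical.

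The groups stood apart before any gene was considered. Read pairs in loops ranged from 65178 to 241202 in the bulk libraries and from 50508 to 118179 in the double positive libraries. Of 216081 joined anchors, 15074 were used by loops of both groups, 200999 by bulk loops alone and 8 by double positive loops alone. A gene whose anchor was not among those used by double positive loops therefore has 0 double positive read pairs, and an anchor that was not called cannot be told apart from one without read pairs. The normalization follows the same divide. TMM factors, which scale each library to the bulk of shared features, were 0.521 to 0.786 in bulk and 2.55 to 2.78 in double positive libraries. With TMM the median log2 fold change (double positive over bulk) of all tested genes was -0.34, and with library size alone it was 1.58. Directions below are those with TMM unless another scaling is named, and the main collagens are also given with library size alone and relative to the median gene. Levels are CPM, read pairs scaled to the TMM-adjusted library total, on which 1 read pair is worth 5.51 to 21.6 CPM in bulk and 3.31 to 7.25 CPM in double positive libraries. In bulk samples, fewer cells of a type and less signal per cell cannot be told apart.

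Of the 39 collagens, 38 had an anchor in the TSS window in at least 1 library, against 85.3% of all protein-coding genes, and Col6a5, a collagen VI chain, had none. An anchor used by double positive loops was present at 16 of the 39 collagens (41.0%), against 49.6% of all protein-coding genes and 58.1% of those with an anchor. The other 22 collagens with an anchor had it in bulk loops alone. The anchor covered the TSS itself at 29 collagens. Summed over all members, 759 bulk and 364 double positive read pairs were counted. The bulk read pairs were spread widely, with 42.4% of them at 5 genes (Col2a1, Col9a3, Col20a1, Col18a1 and Col12a1). The double positive read pairs lay at 16 collagens, against 38 in bulk, and 61.5% of them were at Col20a1, Col11a2, Col1a1, Col9a3 and Col7a1.

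**Figure D1:**
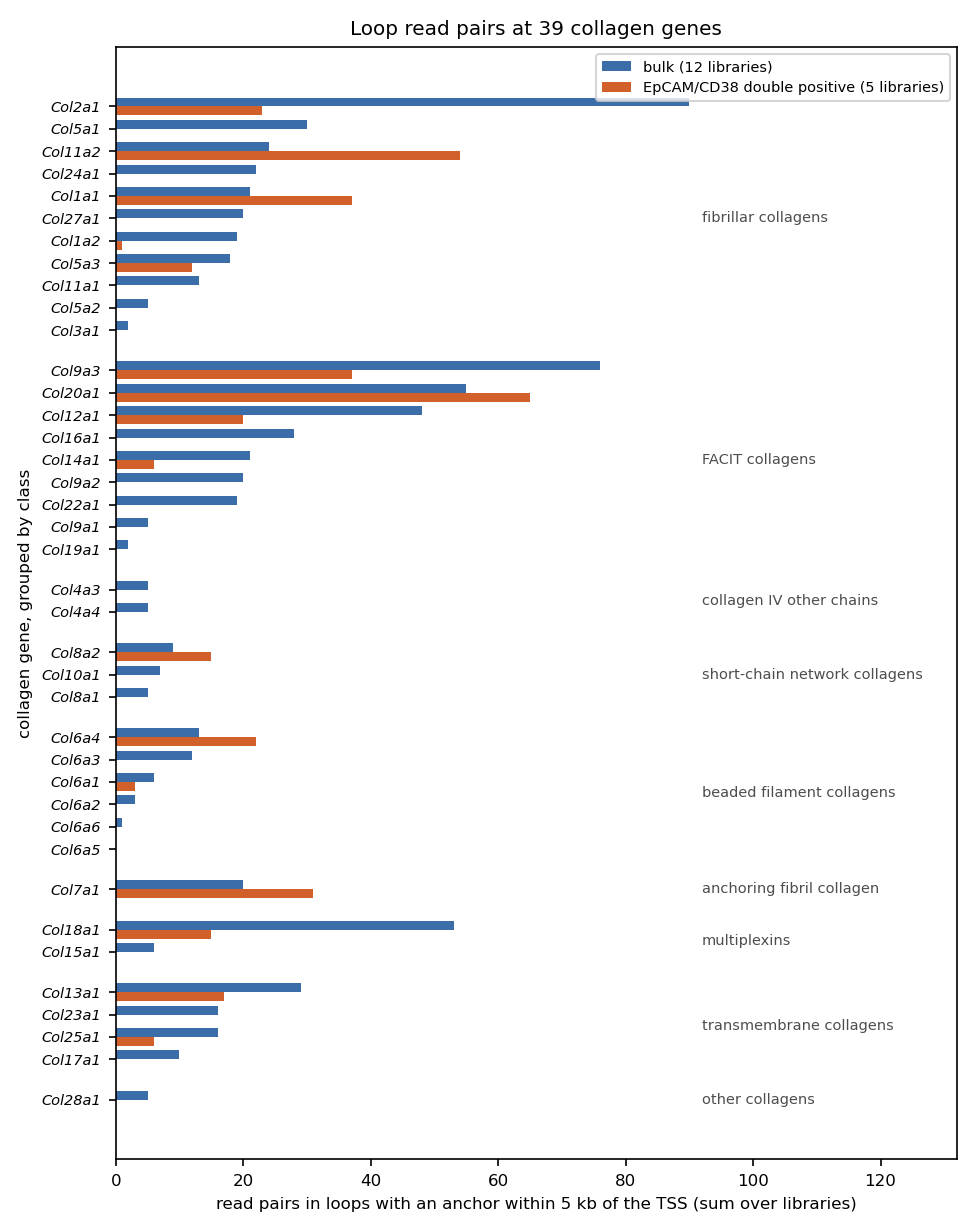
Read pairs in loops with an anchor within 5 kb of the TSS (x axis, sum over libraries, not normalized) for each of the 39 collagen genes (y axis, grouped by class), with 1 bar for the 12 bulk and 1 bar for the 5 double positive libraries. Of the 39 genes, 23 have no double positive bar, while Col11a2, Col1a1, Col20a1, Col7a1, Col6a4 and Col8a2 have more double positive than bulk read pairs.

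The summed CPM of the collagens was 694.2 ± 124.3 (SD, n = 12) in bulk, with a lowest library of 518.1, a median of 700.3 and a highest of 970.7. In the 5 double positive libraries it was 327.6, 365.5, 359.9, 413.7 and 288.1, with a mean of 351.0 ± 46.7 (SD, n = 5). Every double positive library lay below every bulk library on this scale. Without TMM the order turned, since the sum scaled to the plain library total was 743.5 to 1128.5 in double positive and 368.2 to 539.0 in bulk libraries. Over all protein-coding genes the summed CPM was 856699.1 ± 54933.3 (SD) in bulk and 759414.1 ± 28885.7 in double positive libraries.

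The filter on low counts asked for a sum of 20 read pairs or more, found in no fewer than 5 libraries. It left 20 of the 38 collagens with an anchor for the test, against 68.7% of all genes with an anchor. With the edgeR quasi-likelihood test, adjusted over 13109 genes, 1 collagen was higher and 10 were lower in the double positive libraries, and 9 passed in neither direction. Across all tested genes, 19.8% were called higher and 37.6% lower. With library size alone the same 20 collagens gave 8 higher and 5 lower calls, against 62.1% and 20.7% of all genes. The median log2 fold change of the 20 collagens was -1.19, and remained -1.19 with genes at 0 set to a floor of 3 read pairs. It was -0.72 over the 15 with a double positive read pair, against 0.0 for all such genes. With library size alone it was 0.65 over the 20, against 1.58 for all genes. Relative to the median gene, 14 of the 20 lay below and 6 above, with either scaling. All 2295 tested genes without a double positive read pair, which are 17.5% of the tested genes, were called lower, so such a call restates the missing read pairs. Of the 10 lower collagens 5 were of this kind. Among the 15 tested collagens with a double positive read pair, 5 were lower, against 24.4% of 10814 such genes.

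The count of lower collagens depended on single bulk libraries. It was 5 of 16 tested collagens without bulk replicate 2 or 7 (4354 of 12557 and 4530 of 12662 genes). It was 6 of 17 without bulk replicate 5 or 11 (4698 of 12851 and 4738 of 12900 genes). Over the 17 libraries left out in turn it ranged from 5 to 11, while 4354 to 4799 of all tested genes were lower. Part of this came from genes near the filter, which no longer had 20 read pairs. With a window of 2.5 kb the counts were 3 higher and 10 lower of 19, against 20.6% and 33.4% of all genes. With the starts of all transcripts they were 1 and 18 of 25, against 19.9% and 40.9%, and with the anchors used by both groups 0 and 3 of 11, against 26.1% and 9.67%. The double positive and bulk values did not overlap at 1 of the 20 tested collagens, Col5a1, where all double positive libraries lay below all bulk libraries. Over all tested genes this held for 9.81%, and the reverse order, found at 0 collagens, for 6.21%.

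The promoters of 4 collagens are shown to set genes of each direction side by side. They are the 2 tested collagens with the smallest p in each direction among those whose promoter is in the RefSeq table (GRCm38.p6), which leaves out Col1a1. Each holds 250 bases before the RefSeq start, was found once in the mm9 genome, and is given with its mm9 position on the gene's strand. Capitals mark matches to the TATA box letters TATAAA, the CCAAT box, the GC box core GGGCGG or the motif AGATAA, on this strand or its reverse complement. Col11a2 lies at chr17:34175833-34176082 (plus strand), Col6a4 at chr9:105999023-105999272 (minus strand), Col5a1 at chr2:27741695-27741944 (plus strand) and Col16a1 at chr4:129724834-129725083 (plus strand).
Col11a2: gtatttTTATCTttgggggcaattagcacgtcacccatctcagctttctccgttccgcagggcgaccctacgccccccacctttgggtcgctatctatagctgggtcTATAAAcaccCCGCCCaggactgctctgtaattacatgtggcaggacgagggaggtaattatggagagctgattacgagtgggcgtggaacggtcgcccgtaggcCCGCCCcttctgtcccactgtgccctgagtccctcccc
Col6a4: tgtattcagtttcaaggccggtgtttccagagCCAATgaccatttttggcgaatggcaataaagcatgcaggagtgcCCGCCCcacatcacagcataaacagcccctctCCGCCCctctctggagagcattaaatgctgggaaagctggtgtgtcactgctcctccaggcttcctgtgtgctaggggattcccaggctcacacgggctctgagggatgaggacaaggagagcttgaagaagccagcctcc
Col5a1: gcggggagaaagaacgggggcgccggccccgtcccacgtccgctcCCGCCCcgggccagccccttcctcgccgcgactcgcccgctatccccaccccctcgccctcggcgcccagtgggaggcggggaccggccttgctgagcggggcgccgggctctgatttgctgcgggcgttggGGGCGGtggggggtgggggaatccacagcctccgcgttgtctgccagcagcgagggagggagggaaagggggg
Col16a1: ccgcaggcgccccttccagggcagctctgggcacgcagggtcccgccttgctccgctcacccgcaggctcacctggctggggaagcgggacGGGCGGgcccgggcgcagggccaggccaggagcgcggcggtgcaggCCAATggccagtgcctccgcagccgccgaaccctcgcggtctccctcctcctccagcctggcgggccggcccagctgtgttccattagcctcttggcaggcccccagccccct
The Col11a2, Col5a1 and Col16a1 sequences lie inside an anchor, whereas the Col6a4 anchor lies upstream, at -8934 to -3796 bases from the TSS. Col6a4 did not pass the test. GGGCGG, the core of a GC box, was present in each of the 4. Among the 31 collagens with a promoter in the table, 18 (58.1%) held GGGCGG, against 32.7% of all 32851 promoters of the same length. The collagen promoters were also richer in G and C, with a median of 59.2% against 52.4%, and the part of this in the share was not tested. The CCAAT box was found in 9 of 31 collagen promoters (29.0%) against 33.8% of all promoters. The TATA box letters were found in 5 of the collagen promoters (16.1%) against 12.4%. The motif AGATAA, which GATA factors are known to bind, was found in 2 against 9.99%. The DR5 repeat, of the kind that RA receptors bind, was found in 0 of the 31 and in 3 of all promoters. A match is a description of these letters on either strand and not of binding. No overlap between different motifs occurred in the 4 printed sequences.

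Fibrillar collagens, with 11 members, held 1 higher and 5 lower of 8 tested genes, against 19.8% and 37.6% of all tested genes. Of the 5 lower genes 3 had 0 double positive read pairs. With library size alone the class gave 2 higher and 3 lower, against 62.1% and 20.7% of all genes. Col5a1, whose chain helps set the diameter of collagen fibrils, had a read pair in each of the 12 bulk libraries, with 30 in all and a CPM of 11.7, 22.1 and 70.5 in the lowest, median and highest library. It had 0 read pairs in the 5 double positive libraries, and the adjusted p was 4.88e-06. Col24a1 and Col27a1, minor fibrillar collagens, showed the same pattern. Col24a1 had 22 bulk read pairs in 9 libraries (0, 20 and 55.7 CPM in the lowest, median and highest) and 0 double positive read pairs (adjusted p = 0.000142). Col27a1 had 20 in 11 bulk libraries (0, 19.4 and 43.2 CPM) and 0 double positive read pairs (adjusted p = 6.88e-05). Neither gene separated the groups fully, since some bulk libraries were also at 0. For all 3 the call restates the missing double positive read pairs.

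Col2a1 encodes the main fibrillar collagen of cartilage and had the most bulk read pairs of all members. Its CPM in the bulk libraries was 0 in the lowest, 58.3 in the median and 275.8 in the highest, and 16.5, 13.7, 35.3, 29.0 and 22.4 in the double positive libraries. The double positive values were closely spaced and lay inside the wide bulk range. The mean was 74.6 ± 70.2 (SD, n = 12) in bulk and 23.4 ± 8.87 (SD, n = 5) in double positive libraries. On the log2 scale the fold change was -1.82 ± 0.44 (SE, adjusted p = 0.000419) with TMM and 0.13 (adjusted p = 0.794) with library size alone, which turned its sign, and relative to the median gene it was -1.48 and -1.44. The 25 read pairs of bulk replicate 7 and the 21 of replicate 3 stood above the other libraries, and with any library left out the fold change stayed between -1.98 and -1.47 with an adjusted p of at most 0.00321.

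The type I collagen genes, whose products assemble into the same fibril of bone, tendon and skin, had unlike read pair counts, and the difference between them was not tested. Col1a2 had 19 bulk read pairs in 8 libraries (0, 9.01 and 78.5 CPM in the lowest, median and highest) and 1 in a double positive library (3.31 CPM, with the other 4 at 0). The pooled ratio was 0.0538, with a 95% exact interval of 0.0013 to 0.339 that covers counting error only. The call was lower with TMM (adjusted p = 0.00185) and was lost with library size alone (adjusted p = 0.105). Col1a1 had 21 bulk read pairs in 10 libraries (0, 17.8 and 50.2 CPM) and 37 double positive read pairs in all 5 libraries (29.8, 54.8, 49.4, 29.0 and 18.7 CPM). All 5 double positive values lay above the bulk median, and 54.8 lay above the highest bulk library. The log2 fold change of 0.82 ± 0.47 (SE) did not pass with TMM (adjusted p = 0.129), while it was 2.73 with library size alone (adjusted p = 4.3e-07) and 1.16 above the median gene with either scaling. With a window of 2.5 kb around the TSS it passed with TMM too (2.02, adjusted p = 0.00214).

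Col11a2, which joins type II collagen in cartilage fibrils, was the only collagen called higher. Its bulk CPM was 0 in the lowest, 17.1 in the median and 58.4 in the highest library, with a mean of 22.3 ± 21.0 (SD, n = 12). The double positive libraries had 33.1, 54.8, 70.6, 72.6 and 44.9 CPM, with a mean of 55.2 ± 16.8 (SD, n = 5). All 5 lay above the bulk median, and 2 of them lay above the highest bulk library. Its fold change on the log2 scale was 1.23 ± 0.44 (SE, adjusted p = 0.0147), against 3.14 with library size alone (adjusted p = 3.52e-09) and 1.57 above the median gene with either scaling. Leaving out any library kept the call, with adjusted p from 0.00551 to 0.0435. It was lost when only anchors used by both groups were kept (0.29, adjusted p = 0.601), when the whole gene was counted (0.60, adjusted p = 0.123), with libraries 1 to 5 of each group (1.05, adjusted p = 0.057) and with the replicate block on these (1.16, adjusted p = 0.0505). Its partner Col11a1 had 13 bulk and 0 double positive read pairs and was not tested. Col5a3, a further collagen V chain whose anchor it shares with the retinol dehydrogenase gene Rdh8, had 18 and 12 read pairs, and its log2 fold change of -0.45 ± 0.65 (SE) did not pass (adjusted p = 0.575), was 1.39 with library size alone and lay -0.12 from the median gene with TMM. It was -1.27 (adjusted p = 0.157) without double positive replicate 2, which held 7 of the 12 read pairs, and lower with the whole gene (-1.33, adjusted p = 0.0445). Col5a2, with 5 bulk read pairs, and Col3a1, which partners type I collagen in skin and vessels, with 2, had no double positive read pair.

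FACIT collagens, with 9 members, held 4 lower calls of 6 tested genes and 0 higher, against 37.6% and 19.8% of all tested genes. Of the 4 lower genes 2 had 0 double positive read pairs. With library size alone the class gave 2 higher and 2 lower, against 62.1% and 20.7% of all genes. Col16a1 had 28 bulk read pairs in 11 libraries (0, 27.5 and 53.8 CPM in the lowest, median and highest) and 0 double positive read pairs (adjusted p = 1.03e-05). Col9a2, a chain of the collagen IX that coats cartilage fibrils, had 20 in 9 bulk libraries (0, 11.7 and 44.3 CPM) and 0 double positive read pairs (adjusted p = 0.000149), and for both genes the call restates the missing read pairs. Its partner chain Col9a1 had 5 and 0 read pairs and was not tested. The third chain, Col9a3, was present in all 17 libraries. Its bulk CPM was 21.6, 61.3 and 143.5 in the lowest, median and highest library, and 23.2, 36.5, 63.5, 36.3 and 29.9 in the double positive libraries, so that the groups overlapped. The log2 change was -0.94 ± 0.36 (SE, adjusted p = 0.023) with TMM and 1.00 (adjusted p = 0.0151, higher) with library size alone, and relative to the median gene -0.60 and -0.58. The call was lost without double positive replicate 1 (adjusted p = 0.0914) or replicate 5 (adjusted p = 0.0637), and with TMMwsp, a variant of TMM (adjusted p = 0.0684), the replicate block (adjusted p = 0.164) or thinning (adjusted p = 0.134).

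Col12a1 and Col14a1 encode chains that bind the surface of type I collagen fibrils. Col12a1 had a bulk CPM of 0, 32.5 and 99.3 in the lowest, median and highest library and 19.9, 13.7, 14.1, 29.0 and 18.7 in the double positive libraries. Its log2 fold change of -1.11 ± 0.49 (SE) lay just past the threshold (adjusted p = 0.0469), was 0.79 with library size alone (adjusted p = 0.14) and was -0.78 relative to the median gene with either scaling. Leaving out bulk replicate 2, 5, 7, 8 or 11 or double positive replicate 1, 2, 3 or 5 ended the call, with adjusted p from 0.0541 to 0.147. It was also lost with DESeq2 (adjusted p = 0.106), TMMwsp (adjusted p = 0.0912), the replicate block (adjusted p = 0.0879), spans of at least 20 kb (adjusted p = 0.0581), anchors used by both groups (fold change -0.52), thinning (fold change -0.68) and the 2.5 kb window, where the fold change was -0.14 (adjusted p = 0.856). Col14a1, with 21 bulk read pairs and 6 in 3 double positive libraries, fell just short of the threshold (-1.58 ± 0.71, SE, adjusted p = 0.052), was 0.22 with library size alone and -1.25 relative to the median gene with TMM, and passed without any of bulk replicates 3, 4, 8, 10 and 12 or double positive replicates 2 and 4. It was also lower with the whole gene (-3.46, adjusted p = 8.28e-07), the starts of all transcripts (-1.84, adjusted p = 0.017) and the 2.5 kb window (-1.68, adjusted p = 0.0367).

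Col20a1 had more double positive read pairs than any other member. Its CPM was 21.6, 47.1 and 89.7 in the lowest, median and highest bulk library and 66.2, 41.1, 49.4, 87.1 and 63.6 in the double positive libraries. The log2 fold change of 0.27 ± 0.31 (SE) did not pass with TMM (adjusted p = 0.478), while it was 2.21 with library size alone (adjusted p = 1.89e-08) and 0.61 and 0.64 above the median gene. It was higher with the 2.5 kb window (1.04, adjusted p = 0.0128), lower with the whole gene (-0.94, adjusted p = 0.00177) and -0.63 with the starts of all transcripts (adjusted p = 0.0534). Its window held different anchors in the groups. The anchor upstream of the TSS, which also lies in the window of the gene 9230112E08Rik, had 30 bulk and all 65 double positive read pairs, and the anchor inside the gene had 25 bulk and 0 double positive read pairs. Col9a3 and Col20a1 both lie on chromosome 2 beyond 150 Mb. In that region 374 tested genes had a median log2 fold change of -2.14 with TMM and -0.22 with library size alone, and 84.8% of them were lower, against 36.2% of the tested genes elsewhere. The part of this region in the values of both genes was not tested. Of the remaining FACIT genes, Col22a1 had 19 bulk read pairs in 8 libraries and Col19a1 had 2, both without a double positive read pair.

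The other classes held 1 call among 6 tested genes, a lower one, against 37.6% of all tested genes. With library size alone Col7a1, Col6a4, Col8a2 and Col13a1 were higher, against 62.1% of all genes, and Col18a1 and Col25a1 were not called. Col18a1, a multiplexin of basement membranes whose end fragment is endostatin, had 53 bulk and 15 double positive read pairs. Its bulk CPM was 0 in the lowest, 35.5 in the median and 89.8 in the highest library, with a mean of 42.8 ± 30.7 (SD, n = 12), and the double positive libraries had 16.5, 18.3, 14.1, 7.26 and 11.2, with a mean of 13.5 ± 4.37 (SD, n = 5). The log2 fold change was -1.66 ± 0.49 (SE, adjusted p = 0.00349) with TMM and 0.20 (adjusted p = 0.726) with library size alone, and relative to the median gene -1.33 and -1.37. Over the libraries left out it ranged from -1.80 to -1.53, with an adjusted p of at most 0.0136. Col15a1, the other multiplexin, had 6 bulk and 0 double positive read pairs.

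Col7a1, Col6a4 and Col8a2 had more double positive than bulk read pairs in their windows and did not pass with TMM. Col7a1, whose product anchors the epidermis to the dermis, had 20 bulk read pairs (0, 15.3 and 117.2 CPM in the lowest, median and highest library) and 31 double positive read pairs (39.7, 22.8, 21.2, 21.8 and 29.9 CPM). Its log2 fold change was 0.56 ± 0.54 (SE, adjusted p = 0.393). Col6a4, a chain of beaded microfibrils, had 13 and 22 read pairs (0.67 ± 0.55, SE, adjusted p = 0.303), and Col8a2, of the sheet-like network under the corneal endothelium, had 9 and 15 (0.65 ± 0.63, SE, adjusted p = 0.388). With library size alone all 3 were called higher, at 2.44, 2.53 and 2.46, and they lay 0.89, 1.01 and 0.98 above the median gene with TMM. The Col6a4 and Col8a2 values depended on what was counted. The joined anchor upstream of Col6a4 held 42 bulk and 22 double positive read pairs, more of them bulk, since the anchors of most bulk read pairs, as deposited, lay outside the window, and with the whole gene its log2 fold change was -0.92 (adjusted p = 0.0616). Col8a2 was lower with the starts of all transcripts (-1.36, adjusted p = 0.0183). Of the transmembrane collagens, Col13a1 had 29 and 17 read pairs (-0.72 ± 0.54, SE, adjusted p = 0.256) and Col25a1 16 and 6 (-1.27 ± 0.72, SE, adjusted p = 0.129). Both turned sign with library size alone, to 1.17 (adjusted p = 0.0474, higher) and 0.50 (not called). They lay at -0.38 and -0.93 relative to the median gene with TMM. With the whole gene both were lower, Col13a1 at -2.66 (adjusted p = 2.53e-07) and Col25a1 at -4.52 (adjusted p = 4.77e-09), and Col25a1 was also lower with the starts of all transcripts (-2.65, adjusted p = 0.000134).

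**Figure D2:**
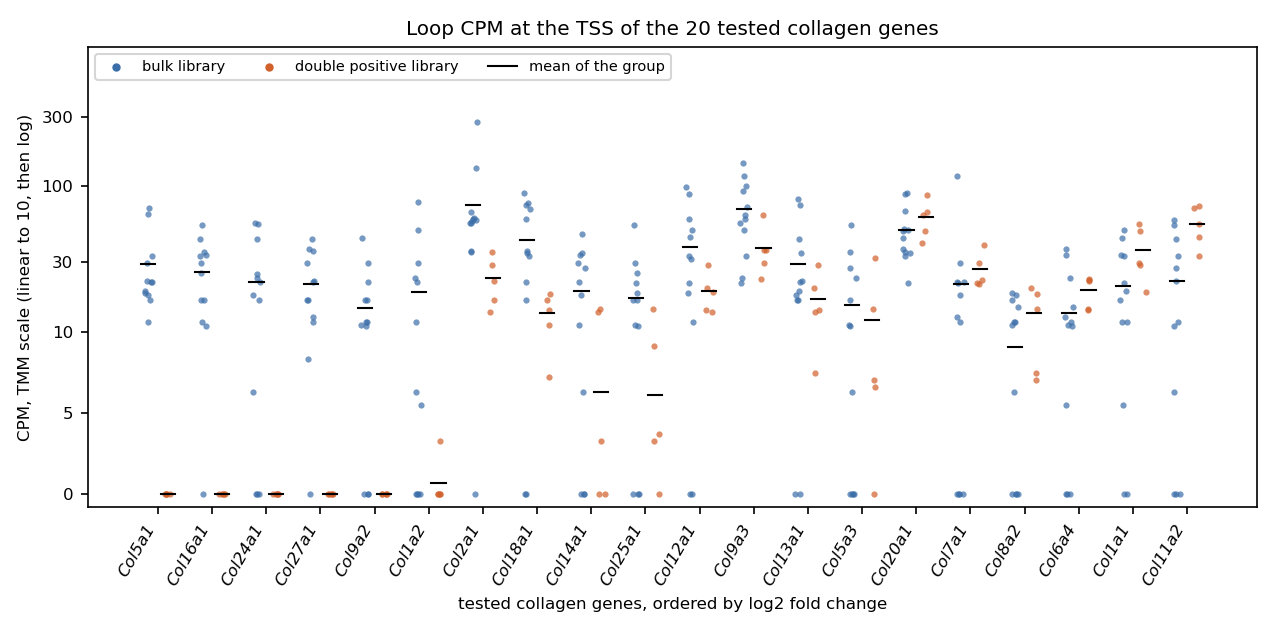
CPM with TMM (y axis, linear to 10 and log above) of the 20 tested collagens (x axis, ordered by log2 fold change), with 1 point per library and a line at the mean of each group. Col5a1 is the gene at which no bulk library reaches the double positive values, which are all 0, and at Col11a2 the double positive values of 33.1 to 72.6 overlap bulk values of 0 to 58.4.

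Among the 19 collagens that were not tested, 18 had an anchor and together held 127 bulk and 3 double positive read pairs. The 3 were at Col6a1, which had 6 in bulk. Its fellow collagen VI chains Col6a3, Col6a2 and Col6a6 had 12, 3 and 1 bulk read pairs and 0 double positive ones. Col4a3 and Col4a4, the collagen IV chains of the kidney filter, are read from a shared start and had the same anchor with the same 5 bulk read pairs. Col10a1, a product of hypertrophic chondrocytes, had 7, Col8a1 5, Col17a1, of the hemidesmosome, 10, Col23a1 16 and Col28a1 5 bulk read pairs, all with 0 in the double positive libraries. When the whole gene was counted in place of the TSS window, 18 of the 39 collagens had an anchor used by double positive loops. The matching share of all protein-coding genes was not counted, so this number is not read as low or high. With the whole gene, 30 of 35 tested collagens were lower, against 50.3% of all genes, and 1 was higher (Col1a1), against 21.4%. The collagen genes ranged in length from 7.11 kb (Col10a1) to 419 kb (Col25a1). Col10a1 had 1 anchor, used by bulk loops alone, and Col25a1 had 45, of which 1 was used by double positive loops. The part of gene length and anchor number in these calls was not tested.

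**Figure D3:**
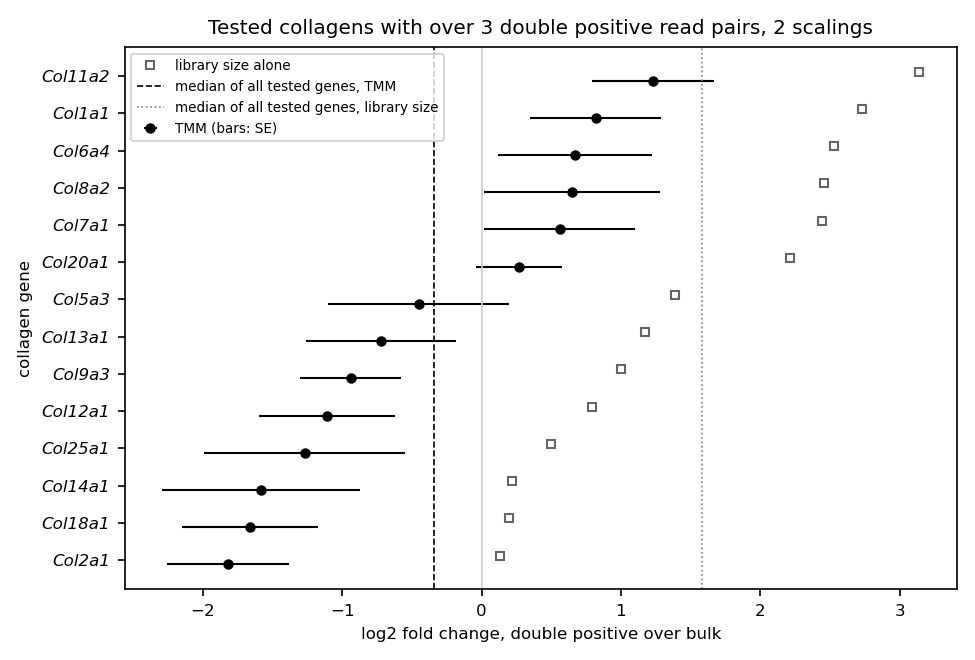
Log2 fold change, double positive over bulk (x axis), of the 14 tested collagens with over 3 double positive read pairs (y axis), with TMM as filled circles with SE bars and library size alone as open squares. Vertical lines mark the median of all tested genes with each scaling, -0.34 and 1.58. The change of scaling moves these 14 genes to higher values, which takes 8 of them across 0.

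Single loops were sparse. The collagen anchors took part in 699 different loops, of which 76.4% had 1 read pair, 512 were seen in bulk libraries alone, 135 in double positive libraries alone and 52 in both. A loop of at least 5 read pairs was found at 12 collagens. Only 3 collagen loops passed the filter among 5369 tested loops, of which 38.5% were called higher and 22.3% lower. The Col20a1 loop joined its upstream anchor (chr2:180713638-180718822) to the start of the GTPase regulator gene Arfgap1, 14.4 kb away. It had 9 read pairs in 8 bulk libraries and 29 in all 5 double positive libraries, and was higher with TMM (log2 fold change 1.22 ± 0.54, SE, adjusted p = 0.0406). This call was lost in 11 of the 17 fits that left out 1 library, among them each of the 5 double positive ones, and with DESeq2. The Col11a2 loop to an anchor at Rxrb, a retinoid X receptor gene, and its neighbours Slc39a7 and H2-Ke6, 7.02 kb away, had 9 and 18 read pairs (0.63 ± 0.60, SE, adjusted p = 0.355). The Col9a3 loop to Ogfr, 9.02 kb away, had 14 and 10 (-0.75 ± 0.60, SE, adjusted p = 0.266). With library size alone all 3 were called higher, as were 4129 of all 5369 tested loops.

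The other loops were too sparse for a test, and their read pairs are given as counts. Col11a2 was joined to the chromatin reader gene Brd2, 82.2 kb away, by 0 bulk and 7 double positive read pairs, and to an anchor at Ring1 by 5 and 9. Col1a1 was joined to Sgca and Hils1, 29.4 kb away, and to Pdk2, 101.1 kb away, by 6 double positive read pairs each and 0 bulk read pairs, and to Ppp1r9b by 3 bulk and 2 double positive read pairs. At Col12a1 the most used partner was not the same in the groups, a difference that was not tested. An anchor 29.4 kb away, not at a gene start, had 12 bulk read pairs in 8 libraries and 2 in 1 double positive library, while the respiratory chain gene Cox7a2, 40.2 kb away, had 1 bulk and 8 double positive read pairs in 4 libraries. Of the 6 double positive read pairs of Col14a1, 5 led to Mrpl13 and Mtbp, 250.2 kb away. Col18a1 had 7 bulk read pairs in 6 libraries to Pofut2 and Gm10941 and 0 double positive ones. Col2a1 had no dominant loop, with at most 5 bulk read pairs at any of 59 bulk loops.

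**Figure D4:**
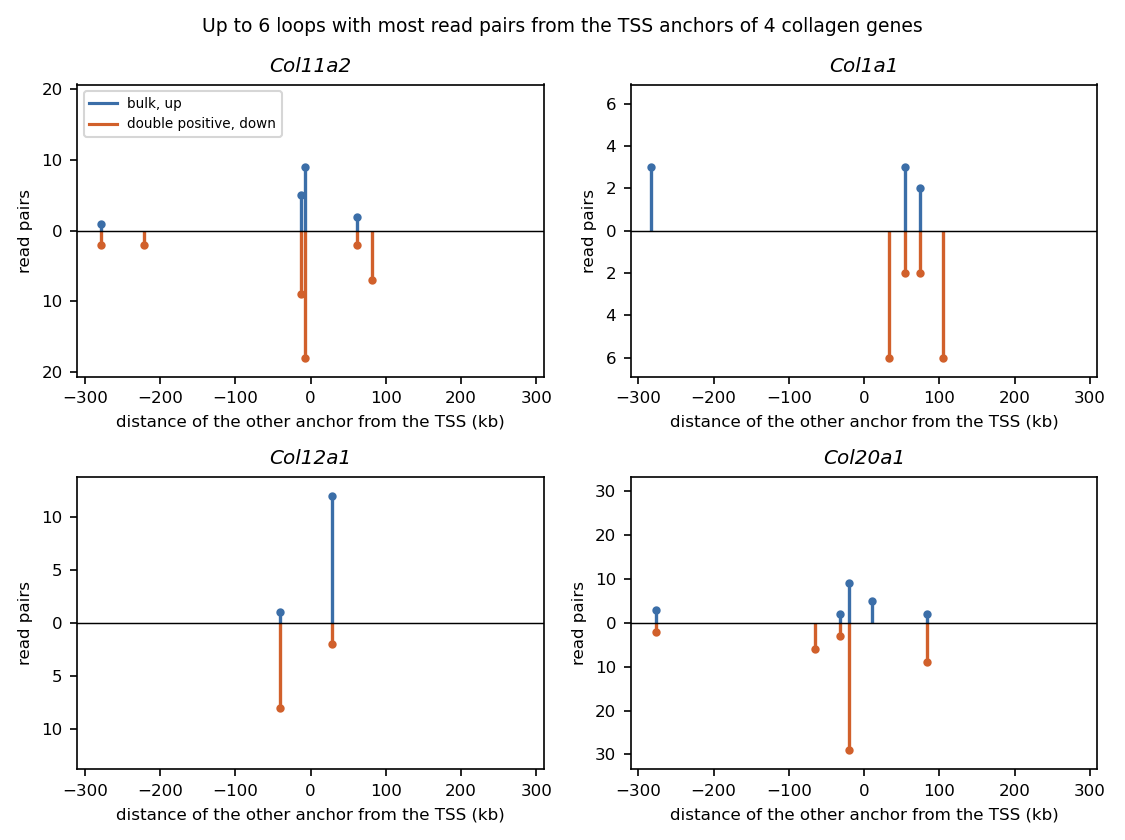
Read pairs (y axis, bulk upward and double positive downward, summed over libraries) of up to 6 loops with the most read pairs, drawn only where the other anchor is near, at Col11a2, Col1a1, Col12a1 and Col20a1, against the distance of the other anchor from the TSS in kb (x axis, positive downstream). At Col12a1 the bulk libraries favour an anchor downstream (12 against 2 read pairs) and the double positive libraries one upstream (8 against 1).

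Other ends of loops lay at gene starts more often in the double positive libraries, both at the collagens and at all protein-coding genes. This is a description without a test. The share of collagen read pairs whose other anchor lay within 5 kb of a protein-coding TSS was 31.2% ± 7.4 (SD, n = 12) in bulk, from 20% to 44.4%, and 80.5% ± 4.45 (SD, n = 5) in double positive libraries, from 75.4% to 85.9%. The groups did not overlap. For all protein-coding genes the shares were 35.0% ± 2.19 and 76.4% ± 0.179, also without overlap (31.9% to 38.7% and 76.2% to 76.6%). The share of read pairs spanning over 100 kb was 58.1% ± 4.28 in bulk and 54.3% ± 5.73 in double positive libraries at the collagens, against 53.6% ± 0.85 and 46.4% ± 0.391 for all genes.

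**Figure D5:**
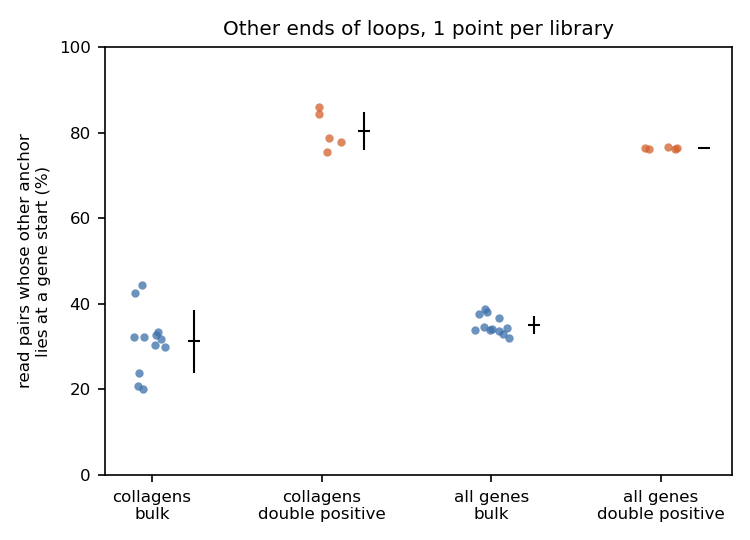
Share of read pairs whose other anchor lies within 5 kb of a protein-coding TSS (y axis, percent), for collagens and for all genes in both groups (x axis), with 1 point per library and the mean with its SD beside them. Collagen read pairs led to gene starts in 20% to 44.4% of cases in bulk and 75.4% to 85.9% in double positive libraries. For all genes the shares were 31.9% to 38.7% and 76.2% to 76.6%.

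Col4a1 and Col4a2, the widely used basement membrane chains left out of the set, were both called higher, without a test against the set. They are read from a shared start and have the same window, with 62 bulk and 256 double positive read pairs. The CPM was 22.1, 50.1 and 111.4 in the lowest, median and highest bulk library and 162.1 to 280.6 in the double positive libraries, without overlap. The log2 fold change was 2.11 ± 0.26 (SE, adjusted p = 4.04e-09), and 4.05 with library size alone. Of the read pairs, 7 in bulk and 198 in double positive libraries joined 2 neighbouring anchors 6.14 kb apart, chr8:11307296-11310388 and chr8:11311491-11318467.

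Over 4 lists of genes that build, process or bind collagen, 6 of 21 tested genes were higher and 4 lower, against 19.8% and 37.6% of all tested genes, and no difference from the collagens was tested. Of 12 tested genes of chain modification and folding, 6 were higher, 1 was lower and 5 did not pass, with a median log2 fold change of 0.71. Crtap, of the prolyl 3-hydroxylation complex, had 8.99 ± 10.1 CPM (mean ± SD) in bulk and 65.8 ± 19.6 in double positive libraries (log2 fold change 2.63 ± 0.45, SE, adjusted p = 4.03e-06). Glt25d1, a collagen galactosyltransferase, rose from 23.7 ± 16.4 to 104.0 ± 5.42 CPM (2.04 ± 0.33, SE, adjusted p = 1.38e-06), and Fkbp10, a collagen chaperone, from 37.5 ± 30.5 to 130.1 ± 21.4 (1.84 ± 0.32, SE, adjusted p = 5.67e-06). The prolyl hydroxylase subunit genes P4ha2 and P4hb and the cyclophilin gene Ppib were the other 3, and P4ha3 was the lower one. Serpinh1, the collagen-specific chaperone, had the most bulk read pairs of the list (289) and 234 double positive ones, fewer than the 281 of P4hb. Serpinh1 did not pass with TMM (-0.32 ± 0.23, SE, adjusted p = 0.234), while it was higher with library size alone (1.65, adjusted p = 1.47e-08). With library size alone 11 of the 12 were higher and P4ha3 did not pass, and 15 of 21 were higher over the 4 lists, against 62.1% of all genes.

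Genes that act on secreted collagen held no higher call with TMM, whereas Adamts14, Loxl3, Itgb1 and Ddr1 were higher with library size alone. Of 4 tested propeptide cleavage genes, 2 were lower and 0 higher, against 37.6% and 19.8% of all tested genes. With library size alone 0 were lower and 1 was higher, against 20.7% and 62.1% of all genes. Pcolce, an enhancer of procollagen cleavage, fell from 86.5 ± 46.6 CPM (mean ± SD) to 31.7 ± 11.9 (log2 fold change -1.50 ± 0.36, SE, adjusted p = 0.000335), and Bmp1, the protease it assists, from 58.2 ± 28.7 to 28.0 ± 8.48 (-1.15 ± 0.38, SE, adjusted p = 0.00834), but both turned sign with library size alone, to 0.43 and 0.77. Pcolce2 did not pass (-0.91 ± 0.69, SE, adjusted p = 0.262). Of the cross-linking enzymes Loxl3 was tested and did not pass (0.88 ± 0.42, SE, adjusted p = 0.0653), while Lox, Loxl1, Loxl2 and Loxl4 had 5, 17, 12 and 9 bulk and 0 double positive read pairs. Of 4 tested collagen receptors, Ddr2, a receptor for fibrillar collagen, was lower with 41 bulk and 0 double positive read pairs (adjusted p = 5.48e-07). The integrin genes Itga2 (-1.53 ± 0.70, SE, adjusted p = 0.0562) and Itgb1 (-0.83 ± 0.40, SE, adjusted p = 0.074) did not pass.

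Marker genes of the cell types that EBs can hold were followed in the same way, and some but not all of them differed between the groups. The counts with TMM below stand against 19.8% of all tested genes called higher and 37.6% called lower. The sort marker genes did not pass with TMM, with 0.87 ± 0.57 (SE, adjusted p = 0.196) for Epcam and 0.48 ± 0.42 (SE, adjusted p = 0.339) for Cd38. Both were higher with library size alone, at 2.75 (adjusted p = 1.58e-05) and 2.38 (adjusted p = 1.32e-06), and with TMM they lay 1.20 and 0.82 above the median gene. Of 11 tested endoderm marker genes, 6 were higher and 0 lower (Gata4, Foxa2, Krt8, Krt18, Cubn and Lamb1). The other 5 did not pass. Their log2 fold changes were -0.74 for Sox17, -0.59 for Lama1, -0.16 for Gata6, 0.45 for Sox7 and 0.46 for Amn. Dab2 has a longer and a shorter entry in the annotation, and neither was tested. The longer one, of 140.9 kb, had no anchor in its window and so 0 read pairs in both groups. The shorter one, of 7.65 kb, had 12 bulk and 0 double positive read pairs. The summed CPM of the endoderm list was 533.0 ± 148.2 in bulk against 1306.5 to 1631.4 in those of double positive cells. Cubn had the most bulk read pairs of this list (110) and Krt18 the most double positive ones (603). Of 6 tested mesenchyme markers, 4 were lower and 0 higher, and 3 of these 4 calls restate the missing double positive read pairs. Prrx1, Pdgfra, Tcf21, Twist1, Twist2, Thy1, Foxc1 and Tbx18 had 0 double positive read pairs, and the summed CPM of the list was 282.6 ± 67.5 in bulk and 76.1, 77.7, 84.7, 14.5 and 44.9 in the double positive libraries, with Meox1 holding the most bulk read pairs. All 4 tested cartilage markers, Sox9, Sox5, Sox6 and Matn1, were lower, and the Sox5 call restates its 0 double positive read pairs. Acan, Matn3, Hapln1 and Comp also had 0 double positive read pairs. The summed CPM of the list was 300.7 ± 96.7 in bulk against 36.3 to 68.5 in those of double positive cells. Of 8 tested neural markers, 7 were lower and 0 higher, and the summed CPM was 834.0 ± 186.9 in bulk against 49.4 to 97.3 in those of double positive cells. Sox11 had the most bulk read pairs of this list (324) and Tubb3 the most double positive ones (44). Of 4 tested pluripotency markers, 2 were higher (Klf4 and Tdgf1) and 1 was lower (Esrrb, with 0 double positive read pairs). With library size alone Sox9, Sox6, Matn1, Meox1 and Pax6 were no longer called. All 11 endoderm markers, Tubb3 of the neural and Pdgfrb of the mesenchyme list were then higher, against 62.1% of all genes. The part of these cell types in the collagen values was not tested.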

How the data were processed

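The authors aligned H3K27ac HiChIP reads to mm9 with HiC-Pro and called loops with hichipper, and deposited for each of 17 libraries (12 bulk, 5 double positive) the count of read pairs per anchor pair, without normalization. These counts were summed over loops with an anchor within 5 kb of each TSS, each read pair once per gene. Anchors of different libraries were joined for loops. Gene sums were tested with edgeR 4.0.16 (R 4.3.3), using TMM, the robust quasi-likelihood test and Benjamini-Hochberg adjustment over 13109 genes at 0.05. SE is the log2 fold change over the square root of F. Intervals cover counting error only. All collagens are named, with up to 8 called in each direction in full, beside Col4a1, Col4a2, Epcam, Cd38 and the 3 tested genes of smallest p in each list of collagen processing genes. Other genes and loops given were chosen after their values were seen. The members and gene lists were chosen with earlier results of these data known. No pair of libraries was identical (chi-square tests, largest p = 9.16e-08). Replicate numbers did not pair the libraries (5 correlations of -0.013 to 0.009). Alternatives covered DESeq2 1.42.0, scaling, filters, windows, anchors, spans, thinning, regions and left-out libraries, of which the whole gene and the unpaired libraries 1 to 5 were added after seeing the data.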

Additional observations from a re-analysis of the deposited data

Results flagged for a closer look

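Of 28 groups of double positive values examined, 3 held a library far from the others. A gene with read pairs in 1 double positive library alone is flagged by construction, and genes that share a window repeat the same values. The count is therefore not set against the chance rate of the rule, about 1 in 20 groups. Col1a2 had 3.31 CPM in double positive replicate 1, from 1 read pair, and 0 in the other 4 libraries. Col4a1 and Col4a2, which share their window, had 162.1 CPM in double positive replicate 1, below the 261.1 to 280.6 of the other 4. Without that library their log2 fold change was 2.24 in place of 2.11 (adjusted p = 9.62e-09).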

How the results depend on the processing

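Counts of calls moved with the processing, beside those of all genes. Lower calls numbered 18 of 25 tested collagens with the starts of all transcripts (5609 of 13712 genes), 30 of 35 with the whole gene (7849 of 15597), 24 of 38 without a filter (9314 of 19090), 6 of 17 with spans of at least 20 kb (4242 of 12443), 5 of 20 with library size alone (2711 of 13109), 4 of 8 under a filter of 50 read pairs (2852 of 9398), 4 of 12 with libraries 1 to 5 of each group unpaired (3196 of 11140), 3 of 11 with anchors used by both groups (932 of 9641), 2 of 9 with thinning to the smallest total (2073 of 9919) and 2 of 12 with the replicate block (2995 of 11140). Higher calls numbered 3 of 19 collagens with the 2.5 kb window (2488 of 12069 genes), 8 of 20 with library size alone (8138 of 13109) and 0 with the replicate block (2200 of 11140), the unpaired libraries 1 to 5 (2380 of 11140) or the anchors used by both groups (2520 of 9641). Collagen loops called higher numbered 3 of 3 tested with library size alone (4129 of 5369 loops). They numbered 0 of 3 with DESeq2 (1643 of 5369), the unpaired libraries (1142 of 3985) or the replicate block (826 of 3985). The count was also 0 with at least 50 read pairs (335 of 850), spans of at least 20 kb (1512 of 2809) or without distal chromosomes 1 and 2 (2465 of 4801). Collagen loops called lower stayed at 0. No collagen loop could be tested with at least 50 read pairs or spans of at least 20 kb, so these zeros follow by construction. Leaving out distal chromosome 2 removes the Col20a1 and Col9a3 loops, and the 1 collagen loop still tested was not called. With any library left out, 2202 to 2646 genes were higher and 4354 to 4799 lower, while 1 collagen was higher and 5 to 11 were lower. The collagen loops called higher then numbered 0 to 1, against 1217 to 1945 of all loops. DESeq2 called 1 of 20 tested collagens higher and 9 lower (2761 and 4627 of 13109 genes).

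Signs turned with library size alone for, among others, Col2a1 (0.13), Col18a1 (0.20), Pcolce (0.43), Bmp1 (0.77), Pcolce2 (0.89), Itga2 (0.32) and Itgb1 (1.09), and with the whole gene for Cd38 (-0.11), Col6a4 (-0.92) and Col20a1 (-0.94). Col20a1 (-0.63) and Col8a2 (-1.36) also turned with the starts of all transcripts. With library size alone Col5a3, Col9a3, Col12a1, Col13a1, Col14a1 and Col25a1 turned too. Library size alone leaves out the TMM factors, which takes the median gene from -0.34 to 1.58, and the whole gene and the starts of all transcripts count other anchors. For the genes given in full by the naming rule, 599 of 653 values under the alternatives kept their direction and side of the threshold. This rule leaves out Col9a3, Col12a1 and the collagens that were not called. Of the 599 values, 347 came from fits that left out 1 library and 252 from the other settings. All 8 reversed values came from the other settings. A fit in which a gene fell below the filter gave no value. Anchors used by both groups drop genes without double positive read pairs by construction, and stricter filters, thinning and the 5 libraries a group of the block leave fewer genes to test. The replicate block used libraries 1 to 5 of each group, and its Col11a2 value was 1.16 (adjusted p = 0.0505), against 1.05 (adjusted p = 0.057) for the same libraries unpaired. The libraries share only a number, and 1 of them correlated best with its own number. A single read pair is worth up to 21.6 CPM in bulk, which limits the precision at genes with few read pairs.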
